A study of Bos taurus with 6 samples.

Results

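The genes described here are the zinc finger genes named ZNF followed by a digit, one of the commonest kinds of transcription factor gene in mammals. They were taken from the platform annotation wherever a probe set carried a single gene symbol of that form. The rule found 68 genes on 76 probe sets, of 6337 genes with a single symbol and 12763 probe sets in all. Where a gene had several probe sets, as 7 of the 68 did, the probe set that was brightest on average over the 6 arrays stood for it. The RNA came from white blood cells of female Sanhe heifers, a Chinese dual-purpose cattle breed, and was read on an Affymetrix bovine array. The 3 arrays after cold (numbered 1, 2 and 3) came from blood of heifers kept outdoors at -32 °C for 3 hours and then in a cowshed at 5 °C for 15 hours. The 3 arrays before cold (numbered 4, 5 and 6) came from blood drawn before that exposure, and all animals shared one cowshed and one mixed ration. The design text says that 3 animals out of 30 gave both samples, without saying which samples share an animal, when within the sequence the later blood was drawn, or how old the heifers were.

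A zinc finger of this kind is a short loop held by a zinc ion, clasped by a pair of cysteines and a pair of histidines, and a row of such fingers reads a row of bases in DNA. Many of the ZNF proteins also carry a KRAB domain, which binds the corepressor TRIM28 and through it brings histone methylation and silencing, above all to transposable elements. Other ZNF proteins lack that domain and act as promoter activators, as partners of RNA or in ribosome assembly, and the shared name says little about shared function.

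All values are log2 intensities, and a change is the mean after cold minus the mean before cold. The blood was checked first. The leukocyte genes PTPRC, CD53, CORO1A and LCP1 were all bright, with an averaged log2 intensity of 11.52 to 11.90 after cold and 11.54 to 11.90 before. The T cell list averaged 10.62 to 11.18 after cold and 10.84 to 11.49 before. RNA of red cells was also present, with HBB at 11.87, 12.25 and 12.06 after cold and 11.72, 11.96 and 12.23 before, as was the platelet gene PF4 at 12.42 to 12.64 after cold and 12.49 to 12.78 before. The B cell genes averaged 10.67 to 11.08 after cold and 10.77 to 11.05 before, the monocyte genes 8.60 to 9.49 after cold and 8.54 to 9.50 before, and the neutrophil genes 12.23 to 12.76 after cold and 11.99 to 12.68 before. None of the 17 measured markers of the 26 listed passed the test, and their part in the ZNF values was not tested. In whole white blood cells, fewer cells of a type and less RNA per cell cannot be told apart.

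The arrays did not group by exposure. The first principal component of all probe sets, with 68.4% of the variance, put the after 1, after 2 and after 3 arrays at -23.3, 52.07 and -63.2 and before 4, before 5 and before 6 at -1.31, -16.3 and 52.03. The after 2 and before 6 arrays thus stood together at one end, and after 3 stood at the other. Values without these arrays are given beside many, but not all, of the ZNF results that they move. Of the 68 ZNF changes, 55 lay nearer 0 without after 3 than with it.

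No ZNF gene differed past the threshold after cold. With limma and Benjamini-Hochberg adjustment over all 12763 probe sets, 0 of the 68 had an adjusted p under 0.05, beside a background of 0% of probe sets, and the smallest adjusted p among the 68 was 1.00. At an unadjusted p under 0.05 there was 1 ZNF gene lower after cold, ZNF184, where 0.462% of all probe sets were, and 0 higher, where 0.0313% were. A lower mean after cold was found in 37 of the 68, or 54.4%, beside 43.7% of the 6337 genes and 47.6% of probe sets. Without after 3, 35 of the 68 had a lower mean, or 51.5%, beside 50.3% of all genes. The median change of the ZNF genes was -0.10, and that of all genes 0.05. These medians lay close together without after 3, at -0.0054 for the ZNF genes and -0.0018 for all genes, and further apart without after 2, at -0.18 for the ZNF genes and 0.07 for all genes. Without the dimmest 25% of probe sets the ZNF median was 0.030, from 49 genes, and that of all genes 0.05. With all arrays and probe sets the middle 50% of the ZNF genes lay between -0.49 and 0.17, and that of all genes between -0.21 and 0.18. A difference of at least 1.5-fold was seen in 10 ZNF genes with a lower mean after cold, or 14.7%, beside 6.81% of probe sets, and in 0 with a higher mean, beside 0.227%. These 10 were ZNF131, ZNF143, ZNF184, ZNF200, ZNF292, ZNF330, ZNF354A, ZNF565, ZNF613 and ZNF705A, and 9 of them were lowest on the after 3 array. Without after 3 the number at least 1.5-fold lower was 1 (ZNF705A), or 1.47%, beside 0.619% of probe sets. It was 23 without after 2, or 33.8%, beside 22.2%, and 20 without after 2 and before 6 together, or 29.4%, beside 15.4%.

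**Figure D1:**
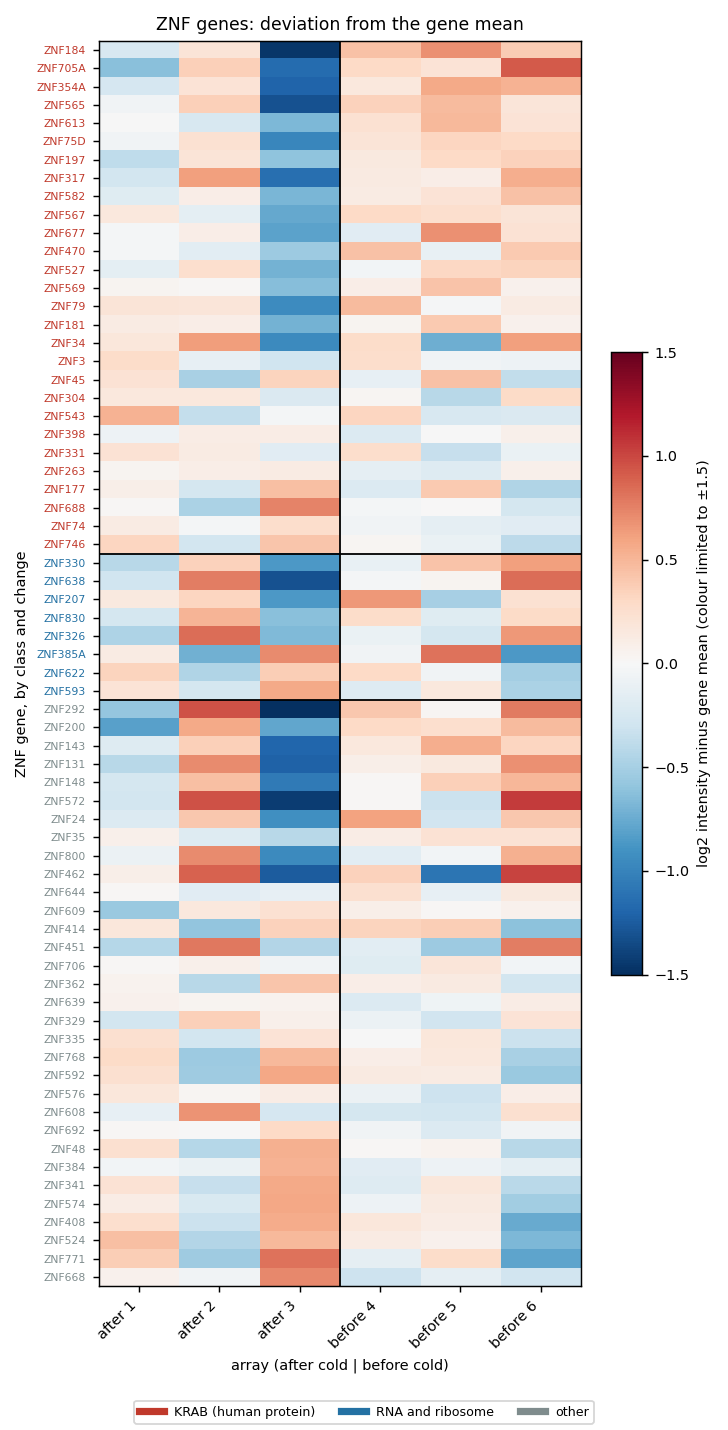
Deviation of each of the 68 ZNF genes from its own mean over the 6 arrays, in log2 units (colour), with the 3 arrays after cold left of the line and the 3 before cold right of it. The gene names are coloured by class, and rows run from the most negative to the most positive change within a class. The after 3 column holds most of the dark cells, blue in the upper rows of each class and red in the lower ones.

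For a closer description the 68 genes were sorted by what their human proteins are known to be. This sorting was made from background knowledge with the values in view, was not checked on bovine proteins, and carries no test. It gave 28 KRAB proteins, 8 proteins of RNA handling or ribosome assembly and 32 others.

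Of the 28 KRAB genes, 18 had a lower and 10 a higher mean after cold, and 0 passed the limma threshold. Their median change was -0.39, beside -0.22 for the RNA and ribosome genes, 0.07 for the other ZNF genes and 0.05 for all genes. Without after 3 the RNA and ribosome median was 0.011, with 4 of 8 lower. Array by array, the KRAB genes deviated from their own means by a median of 0.03, 0.10 and -0.66 after cold, against 0.14, 0.20 and 0.19 before. The after 3 array was far below the others, and after 1 and after 2 lay only slightly below the arrays before cold. All 18 KRAB genes with a lower mean were lowest on after 3, where 71.2% of the 2771 lower-mean genes of the whole array were. Without the after 3 array the KRAB median was -0.13, with 18 of 28 lower, and that of all genes -0.0018. Without after 2 the KRAB median was -0.51, and without after 2 and before 6 together -0.54. Most KRAB probe sets were dim: 25 of the 28 lay in the dimmer 50% of all probe sets. Among those 25, 17 had a lower mean after cold with a median of -0.39, where 46.6% of all genes at that level had one, with a median of 0.03. The remaining 3 KRAB genes, in the brighter 50%, had a median of 0.18.

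**Figure D2:**
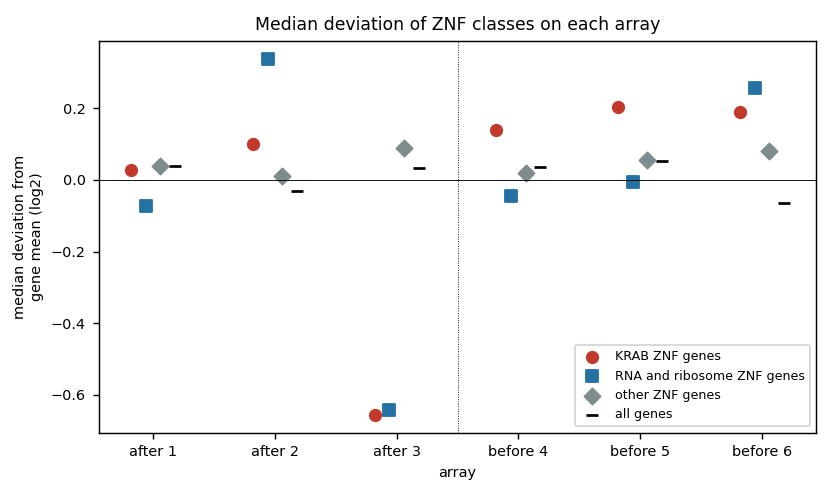
Median deviation from the gene mean (log2, vertical axis) on each of the 6 arrays (horizontal axis, after cold on the left) for the 28 KRAB, 8 RNA and ribosome and 32 other ZNF genes, with all 6337 genes as dashes. On after 3 the KRAB median was -0.66 and the RNA and ribosome median -0.64, while that of the other ZNF genes was 0.09.

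Among the KRAB genes, ZNF184 had the largest difference of all 68 ZNF genes. Its log2 intensity was 6.35, 6.78 and 5.13 after cold, against 7.03, 7.27 and 6.97 before. The groups did not overlap, although after 2 came close to before 6, and after 3 lay far under the rest. The change was -1.0 ± 0.42 (SE, 3 arrays in each group), or 2.00-fold, with an unadjusted p of 0.0429 and an adjusted p of 1.00 in limma. It was -0.52 without after 3 and -1.41 without after 2 and before 6.

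ZNF705A was at 6.14, 7.12 and 5.61 after cold, against 7.06, 6.97 and 7.69 before. Here after 2 stood inside the range before cold, and the change was -0.95 ± 0.42 (adjusted p = 1.00, limma), or -0.61 without after 3. ZNF354A, known from rat as the kidney repressor Kid-1, was at 6.92, 7.37 and 5.97 after cold, against 7.33, 7.73 and 7.69 before. After 2 again just reached into the range before cold, while after 1 and after 3 lay below it. The change of ZNF354A was -0.83 ± 0.38 with all arrays and -0.44 without after 3.

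ZNF613 and ZNF582 had a smaller spread between arrays than those 3 genes. ZNF613 was at 6.28, 6.05 and 5.62 after cold, against 6.52, 6.78 and 6.49 before. All arrays after cold were below all arrays before it, and the change was -0.61 ± 0.27, or -0.43 without after 3. ZNF582 was at 6.24, 6.52 and 5.74 after cold, against 6.54, 6.62 and 6.86 before, again with no overlap, though after 2 and before 4 were nearly equal. Its change was -0.51 ± 0.29, or -0.29 without after 3. Both had an adjusted p of 1.00 in limma.

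Over all ZNF genes, the groups did not overlap in 6 with lower values after cold, or 8.82%, beside 2.31% of probe sets, and in 3 with higher values, or 4.41%, beside 2.07%. The 6 were ZNF184, ZNF613, ZNF582, ZNF567, ZNF569 and ZNF35, of which all but ZNF35 are KRAB proteins in human. The 3 were ZNF668, ZNF692 and ZNF74. Without the after 2 array these counts were 22 lower and 17 higher, beside 22.6% and 17.3% of probe sets. Without after 2 and before 6 together they were 22 lower and 20 higher, beside 24.6% and 20.6% of probe sets. Without after 3 they were 6 lower and 3 higher, beside 3.05% and 3.17% of probe sets. Without after 2, alone or with before 6, the ZNF shares were 32.4% lower, and 25% and 29.4% higher. Fewer arrays separate more easily, yet leaving out after 3 alone moved the shares far less than leaving out after 2 alone. The cause was not tested.

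Further KRAB genes lay on both sides of 0. ZNF197, a partner of the von Hippel-Lindau protein in human, differed by -0.52 ± 0.29, ZNF317 by -0.52 ± 0.43 and ZNF75D by -0.54 ± 0.34. ZNF677 differed by -0.49 ± 0.35 and ZNF470 by -0.48 ± 0.28. In the same order, without after 3, these changes were -0.36, -0.09, -0.18, -0.21 and -0.33. On the positive side stood ZNF746, known in human as PARIS, a repressor that the ubiquitin ligase parkin marks for decay, with 7.36, 6.75 and 7.45 after cold, against 7.06, 6.93 and 6.64 before. Its after 2 value lay under all but the before 6 value, so the groups overlapped. Its change was 0.31 ± 0.29, or 0.18 without after 3. ZNF74 was at 6.54, 6.39 and 6.68 after cold, against 6.36, 6.28 and 6.25 before. Those groups did not overlap, with after 2 and before 4 closest, and the change was 0.24 ± 0.24. ZNF263, a promoter-binding KRAB protein, had the smallest range of the 68, 0.31 over the 6 arrays, and a change of 0.17 ± 0.24. ZNF3, ZNF304, ZNF331, ZNF398 and ZNF543 differed by -0.09 to 0.12, each with an SE of at least 0.24.

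**Figure D3:**
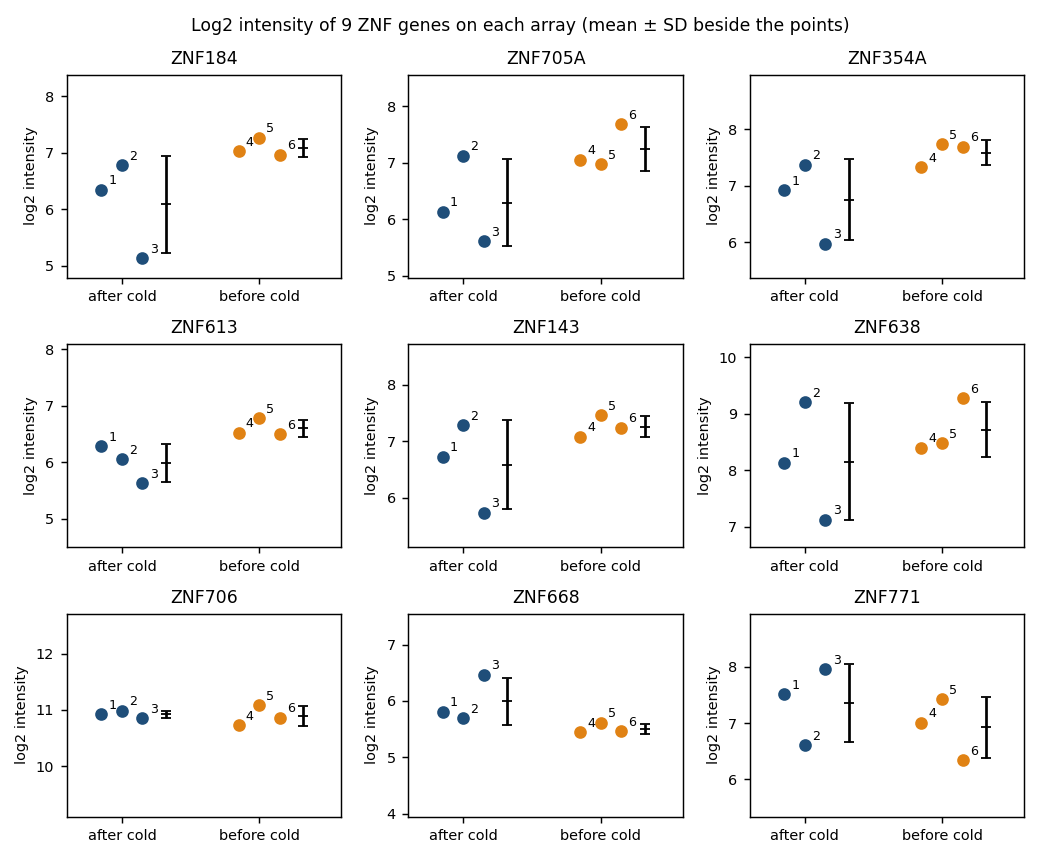
Log2 intensity (vertical axis, of equal span in each panel) of 9 ZNF genes on the 3 arrays after cold and the 3 before, each point marked with its array number, and the mean ± SD beside the points. In ZNF184, ZNF705A, ZNF354A, ZNF613, ZNF143 and ZNF638 the after 3 point was lowest, and in ZNF668 and ZNF771 it was highest. ZNF706 stayed within 0.36 over all arrays.

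Of the 8 genes for RNA handling and ribosome assembly, 5 had a lower and 3 a higher mean after cold, with 0 past the threshold. ZNF638, a nuclear RNA-binding protein known in human to silence unintegrated retroviral DNA, was at 8.13, 9.21 and 7.13 after cold, against 8.40, 8.48 and 9.28 before. Its after 2 and before 6 values were the highest and its after 3 value the lowest, and the change of -0.56 ± 0.52 was -0.05 without after 3. ZNF330, a nucleolar protein in human, was at 7.43, 8.20 and 6.98 after cold, against 7.73, 8.28 and 8.46 before. After 2 lay within its range before cold, and the change was -0.62 ± 0.37, or -0.35 without after 3. ZNF207, the BuGZ protein that helps load the checkpoint protein BUB3 on kinetochores, differed by -0.26 ± 0.42, or 0.11 without after 3. The spliceosome-associated ZNF830 differed by -0.25 ± 0.34, or -0.0027 without after 3. ZNF326, part of a complex that couples transcript elongation to splicing, differed by -0.19 ± 0.45, or 0.09 without after 3.

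Both ribosome assembly members had a higher mean after cold. ZNF593, whose yeast relative Bud20 works in export of the large subunit, was at 5.42, 4.95 and 5.77 after cold, against 5.02, 5.36 and 4.73 before. The groups overlapped, with after 2 under 2 of the arrays before cold, and the change was 0.34 ± 0.31, or 0.14 without after 3. ZNF622, related to the yeast large-subunit factor Rei1, was at 8.54, 7.76 and 8.59 after cold, against 8.52, 8.16 and 7.71 before. Its change was 0.17 ± 0.34 and was 0.02 without after 3. ZNF385A, an RNA-binding partner of p53, had a range of 1.67 over the 6 arrays and a change of 0.07 ± 0.50.

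The 32 other ZNF genes were divided more evenly, 14 with a lower and 18 with a higher mean after cold. ZNF292 had the widest range of all 68 genes, 2.55, with 7.51, 9.05 and 6.50 after cold, against 8.50, 8.12 and 8.86 before. Both the highest and the lowest of its 6 values were after cold, and its change was -0.81 ± 0.59, or -0.22 without after 3. ZNF143, an activator that binds many promoters of housekeeping genes, was at 6.73, 7.28 and 5.73 after cold, against 7.08, 7.46 and 7.24 before. After 2 lay within the range before cold and the others below it, and the change was -0.68 ± 0.40, or -0.25 without after 3. ZNF200 was at 5.47, 6.85 and 5.51 after cold, against 6.58, 6.54 and 6.76 before, a change of -0.68 ± 0.39, or -0.47 without after 3. Its after 1 and after 3 values were alike and well below all others, while after 2 was the highest of the 6. ZNF131, a BTB zinc finger protein, differed by -0.61 ± 0.47 and the GC-box factor ZNF148 by -0.58 ± 0.39. ZNF24, a SCAN protein, differed by -0.48 ± 0.40, ZNF572 by -0.49 ± 0.61 and ZNF462 by -0.18 ± 0.66. Without after 3 the changes of ZNF131, ZNF148 and ZNF24 were -0.15, -0.20 and -0.14, and those of ZNF572 and ZNF462 were on the positive side, at 0.10 and 0.40.

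ZNF668 had the largest positive change of the 68. This gene, tied in human to p53 stability and DNA repair, was at 5.81, 5.70 and 6.47 after cold, against 5.44, 5.61 and 5.46 before. The groups did not overlap, with after 2 and before 5 closest, and the change was 0.49 ± 0.29 (adjusted p = 1.00, limma). Without after 3 it was 0.25. ZNF771 was at 7.51, 6.61 and 7.95 after cold, against 7.01, 7.42 and 6.34 before, a change of 0.43 ± 0.42 with overlapping groups. ZNF524 differed by 0.33 ± 0.36, ZNF408 by 0.32 ± 0.36 and ZNF574 by 0.31 ± 0.31. Without after 3 the changes of ZNF524, ZNF408 and ZNF574 were 0.17, 0.12 and 0.10. The immune regulator ZNF341, which in human is needed for transcription of STAT3, was at 6.76, 6.20 and 7.12 after cold, against 6.36, 6.72 and 6.14 before, a change of 0.29 ± 0.32. The after 2 and before 6 arrays were its lowest. ZNF384, known from leukaemia fusions, differed by 0.26 ± 0.27 and ZNF335, a subunit of a histone methyltransferase complex, by 0.11 ± 0.28. For ZNF341, ZNF384 and ZNF335 the changes without after 3 were 0.07, 0.06 and 0.04. ZNF692 differed by 0.21 ± 0.24 with no overlap on its brightest probe set. On its other probe set, at 0.17 ± 0.24, the groups overlapped, with before 4 above after 1 and after 2. The SUMO ligase ZNF451 differed by -0.05 ± 0.46 and ZNF639 by 0.10 ± 0.24. ZNF706 was at 10.92, 10.99 and 10.86 after cold, against 10.73, 11.09 and 10.86 before, a change of 0.03 ± 0.24.

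**Figure D4:**
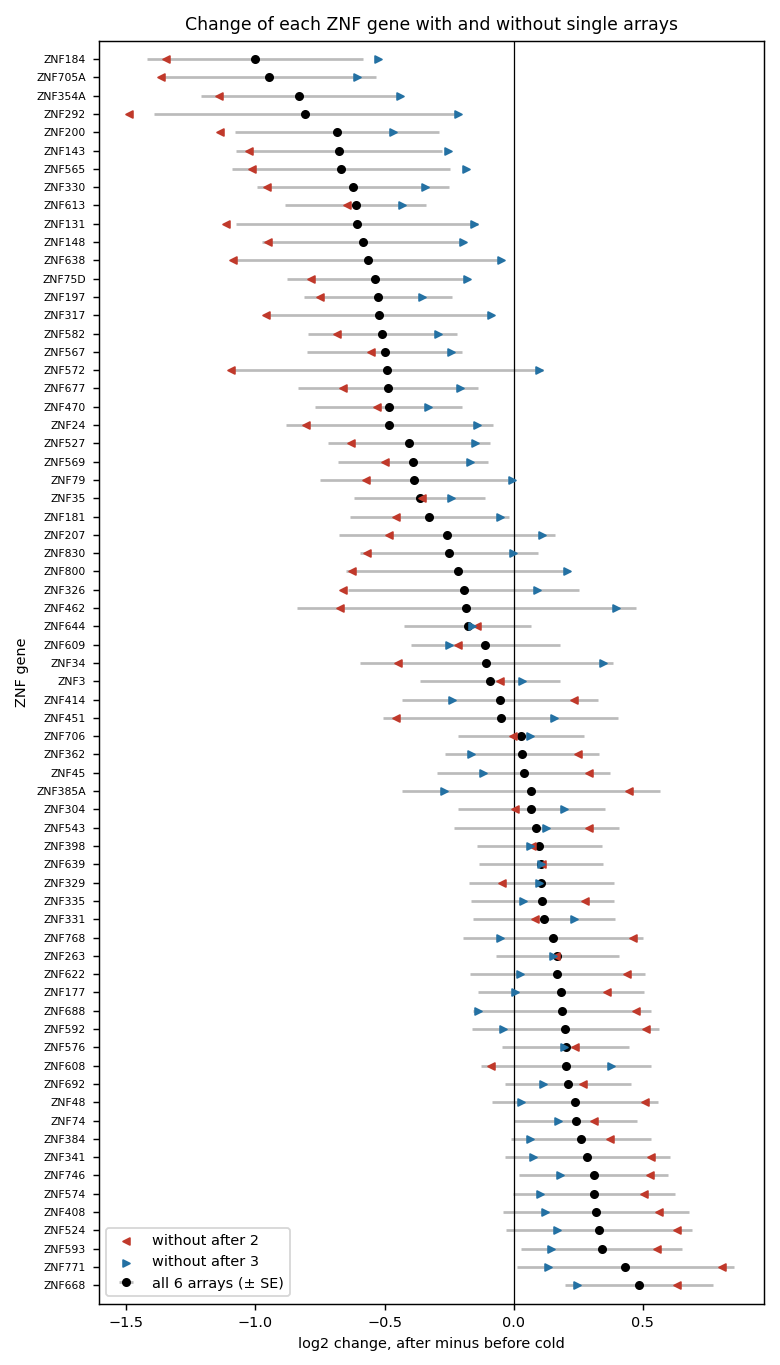
Log2 change (after minus before cold, horizontal axis) of each of the 68 ZNF genes from all 6 arrays (black, ± SE), without after 2 (red) and without after 3 (blue). For ZNF292 the change was -0.81 with all arrays, -1.49 without after 2 and -0.22 without after 3, and 55 of the 68 lay nearer 0 without after 3 than with it.

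The arrays that stood apart moved the ZNF genes in both directions at once. Over the 6 arrays, 19 ZNF genes had a Pearson correlation above 0.8 with the first principal component and 18 had one below -0.8, or 27.9% and 26.5%, beside 22.1% and 33.0% of all genes. ZNF572 and ZNF326 lay at the positive end, with values of 0.99 and 0.98. ZNF768 and ZNF48 lay at the negative end, each at -0.99. The members themselves belong to the probe sets that define the component, and 6 arrays allow high values in either direction, so these are descriptions. A range over 1 log2 unit was seen in 40 of the 68 ZNF genes, or 58.8%, beside 48.5% of all genes. Of the 37 ZNF genes with a lower mean after cold, 32 were lowest on after 3, or 86.5%, beside 71.2% of such genes overall. Of the 31 with a higher mean, 20 were highest on after 3, or 64.5%, beside 62.0%. Leaving out each array in turn never turned the sign of the change in 44 of the 68, or 64.7%, beside 47.2% of all genes. These were 27 genes with a lower and 17 with a higher mean.

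The test depended on the array left out. Without after 2, 16 ZNF genes had an unadjusted p under 0.05, all lower after cold, or 23.5% beside 13.0% of probe sets, and 0 higher, beside 0.995%. Without after 3 there were 0 in either direction, beside 0.0235% lower and 0.0157% higher. Without after 2 and before 6 together, 12 were lower, or 17.6% beside 9.28% of probe sets, and 0 higher, beside 0.384%. The smallest adjusted p among the 68 was 0.270 without after 2, 1.00 without after 3 and 0.492 without after 2 and before 6. Several ZNF genes shared the 0.270, among them ZNF200, whose unadjusted p was the smallest (limma, 0.00204).

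Since each animal gave a sample at both times, each of the 6 ways to match the samples was also fitted as a block. No ZNF gene passed the limma threshold in any of them. The matching 1-4, 2-6, 3-5 gave the most at an unadjusted p under 0.05, with 12 lower, or 17.6% beside 7.19% of probe sets, and 2 higher, beside 1.96%. In that fit ZNF705A had the smallest p of the 68, with a change of -0.95 ± 0.19 (limma, unadjusted p = 0.00190, adjusted p = 0.492). The other 5 matchings gave 1 to 9 ZNF genes. The share of all probe sets is not given for them, so these counts are not read as a result about the ZNF genes. None of the labels tells which matching is the right one.

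Several ZNF genes lie side by side in the genome. On the RefSeq assembly ARS-UCD2.0, used for gene order only, 20 of the 68 formed 9 neighbourhoods with at most 5 other protein-coding genes between members. In 8 of the 9, all members had a change of the same sign, and in 6 of the 9 without after 3. Counted as successive ZNF genes at that spacing, 10 of 11 pairs shared a sign, or 90.9%. Among successive measured genes of any kind at that spacing, 65.4% of 5570 pairs did. The ZNF pairs could have other measured genes between them, so the kinds of pair differ. Without after 3 the ZNF pairs sharing a sign were 8 of 11, or 72.7%, beside 51.5% of the pairs over all genes. ZNF565 and ZNF567, adjacent to each other, differed by -0.67 ± 0.42 and -0.50 ± 0.30. The adjacent ZNF527 and ZNF569 differed by -0.40 ± 0.31 and -0.39 ± 0.29, and ZNF582 and ZNF470, with 3 genes between them, by -0.51 ± 0.29 and -0.48 ± 0.28. ZNF197 and its neighbour ZNF35 differed by -0.52 ± 0.29 and -0.36 ± 0.25. In the same order, without after 3, these pairs were at -0.18 and -0.24, -0.15 and -0.17, -0.29 and -0.33, and -0.36 and -0.24. In the neighbourhood of ZNF48, ZNF771, ZNF768 and ZNF688 all 4 had a higher mean after cold, by 0.24 ± 0.32, 0.43 ± 0.42, 0.15 ± 0.35 and 0.19 ± 0.34. Without after 3 these changes were 0.030, 0.13, -0.05 and -0.14. The exception was the adjacent pair of ZNF200 and ZNF263, at -0.68 ± 0.39 and 0.17 ± 0.24. Related neighbours can share sequence, and cross-hybridisation between their probes was not tested.

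Where a ZNF gene had several probe sets, their changes mostly had the same sign. For ZNF292 a second, dimmer probe set gave -0.38 ± 0.50 and correlated at 0.97 with the first over the 6 arrays. ZNF330 had a second probe set at -0.39 ± 0.32 and ZNF317 one at -0.09 ± 0.25, both with the sign of the first. The 3 probe sets of ZNF398 gave 0.10, 0.01 and 0.27, and those of ZNF688 and ZNF692 agreed in sign as well. The exception was ZNF304, at 0.07 ± 0.28 and -0.25 ± 0.35. Correlation with the first probe set over the 6 arrays was 0.91 for ZNF688, 0.88 for ZNF304, 0.82 for ZNF330 and 0.78 for ZNF317. It was lower for ZNF692, at 0.60, and for ZNF398, at 0.58 and 0.30.

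The partners through which KRAB proteins silence DNA had no common direction. Of the 20 partners listed 14 were measured, 8 with a higher and 6 with a lower mean after cold, a median of 0.04, and 0 past the limma threshold in either direction. TRIM28, the corepressor that KRAB domains bind, was at 10.41, 9.57 and 10.66 after cold, against 10.23, 10.28 and 9.43 before. Its lowest values were on after 2 and before 6, and the change was 0.23 ± 0.38. SETDB1, the histone methyltransferase that TRIM28 recruits, differed by 0.01 ± 0.27 and the heterochromatin protein CBX3 by -0.35 ± 0.31. SMARCAD1, a chromatin remodeller that binds TRIM28, was at 5.59, 6.63 and 4.78 after cold, against 6.25, 6.21 and 6.77 before. Its change of -0.75 ± 0.46 was the largest of the list, with after 3 again lowest. TASOR, of the HUSH silencing complex, differed by -0.24 ± 0.51, the methyltransferase gene DNMT1 by 0.22 ± 0.30 and the deacetylase genes HDAC1 and HDAC2 by -0.08 ± 0.31 and 0.16 ± 0.37.

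**Figure D5:**
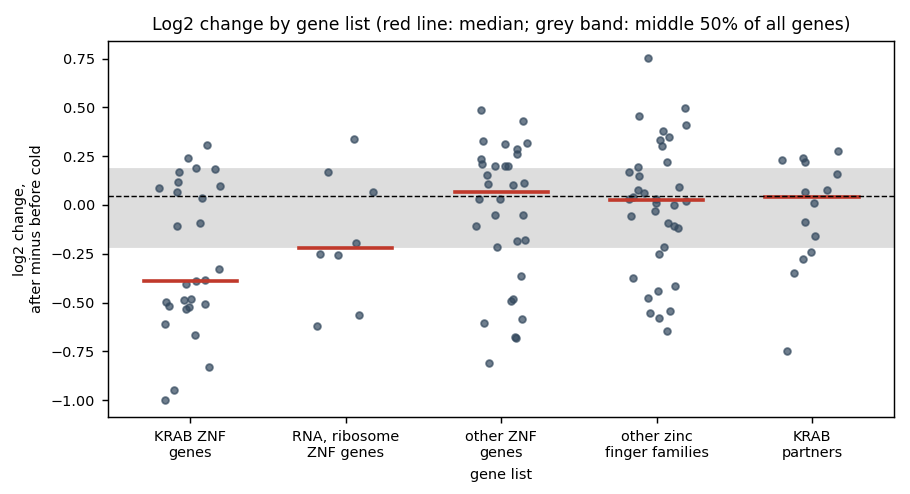
Log2 change (after minus before cold, vertical axis) of each gene in the 3 ZNF classes, in 36 genes of other zinc finger families and in 14 KRAB partners, with each median as a red line. The dashed line is the median of all 6337 genes (0.05) and the grey band their middle 50% (-0.21 to 0.18). The KRAB median of -0.39 and the RNA and ribosome median of -0.22 lay below the band with all arrays. Without after 3 these medians were -0.13 and 0.011. The medians of the other ZNF genes, other families and partners lay within the band with all arrays.

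Zinc finger genes of other names were a further comparison. By symbol, 36 genes of the ZBTB, ZFP, ZSCAN, ZKSCAN, KLF, IKZF, EGR and related families were measured, with 0 past the threshold and a median of 0.03. Their mean after cold was higher in 21 and lower in 15. Without after 2 their median was -0.21, with 22 of 36 lower, beside -0.18 for the ZNF genes, and without after 3 it was 0.13. The symbols also bring in ZFP36 and its relatives, which bind RNA through another kind of finger, and ZBTB8OS, which is no zinc finger gene. ZSCAN16, a SCAN zinc finger gene, differed by -0.58 ± 0.31 and the insulator protein gene CTCF by -0.22 ± 0.40, while KLF11 differed by 0.75 ± 0.46. KLF11 was at 7.11, 8.56 and 7.30 after cold, against 6.95, 6.29 and 7.47 before. Its groups overlapped, and after 2 was its highest array.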

How the data were processed

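The authors deposited a linear intensity per probe set and array, from 3.91 to 18225. The submitters' processing notes name GCOS and RMA, with no version. A genome build or filter is not given in the sources used here. Arrays were few, which limits the precision, and detection calls were not used here. The log2 of the intensities was taken with no further normalization, pseudocount or filter. Every probe set was compared between groups with limma 3.58.1 in R 4.3.3 (linear model, moderated variance, no block, two-sided), with Benjamini-Hochberg adjustment over all 12763 and a threshold of 0.05. This fit was first tested on simulated data. The simulated noise was independent between arrays and probe sets, without the array pattern seen here, so that test does not cover such a pattern. With 3 arrays a group, an exact permutation test has 0.1 as its smallest p. Since nothing says which samples share an animal, the p-values treat the arrays as separate.

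All 68 genes matched a current RefSeq gene by identifier, and 0 symbols changed. Another 2 probe sets carried a ZNF symbol among several and were left out. Members and lists were chosen with earlier results of these data known. The rule for named genes takes the 6 largest changes in each direction, the 5 highest and 5 lowest means, the 5 widest ranges, unadjusted p under 0.05, non-overlapping groups with a change of at least 0.5, and members with a role known from human or mouse. It gave 33 ZNF genes; the other 21 named were chosen after their values were seen. All measured KRAB partners also fell under the rule, and the genes of other families were chosen by their values. Protein and promoter sequences were not used here, so the planned classes by KRAB sequence signature were replaced by the human protein classes.

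Alternatives were filters on the dimmest 25% or 50% of probe sets, a trended or robust variance, array weights, median centring, quantile or cyclic loess normalization, other probe set choices, leaving out each array, and blocks for the 6 matchings.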

Additional observations from a re-analysis of the deposited data

How the results depend on the processing

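With limma, 0 ZNF genes passed an adjusted p of 0.05 under every alternative with a test, including the fit without after 2 and before 6, which was chosen after the data were seen. An unadjusted p under 0.05 was met by 1 ZNF gene, and by 0 without the dimmest 50% of probe sets, 3 with median centring, quantile or cyclic loess normalization, 7 with array weights, 12 without after 2 and before 6, and 0 to 16 on leaving out each array, with 16 without after 2. The block gave 14 for the matching 1-4, 2-6, 3-5, 9 for 1-5, 2-6, 3-4 and 2 for 1-6, 2-4, 3-5. No paired analysis was possible because no label names the animal of a sample, and these matchings are only candidates. The 9 ZNF genes with non-overlapping groups became 5 and 0 without the dimmest 25% and 50%, 42 without after 2 and before 6, and 9 to 39 on leaving out each array. With median centring they were 6. Shares of all probe sets stand above for the fits without after 2, without after 3 and without after 2 and before 6. For tested counts they also stand there for the matching 1-4, 2-6, 3-5. Under the other settings such shares are not given here, and those counts are not read as results about the ZNF genes. The 37 with a lower mean became 24 and 9 without the dimmest 25% and 50%, where 49 and 16 of the 68 are left, and 35 to 40 without single arrays. Of all genes, 42.1% of those left under either filter had a lower mean, and 43.1% to 52.9% without single arrays. The ZNF median was -0.27 with array weights, where that of all genes was -0.018. That setting gave after 1 a weight of 0.0019 and stopped before its tolerance was reached. The 10 ZNF genes at least 1.5-fold lower became 1 without after 3 and 23 without after 2, and these counts and those of neighbouring genes without after 3 were also chosen after the data were seen. Without the dimmest 25% the ZNF median was 0.030, and the KRAB median was -0.21, from 18 genes. The KRAB median was 0.18 without the dimmest 50%, from 3 genes. The median of the other ZNF genes was 0.11 without the dimmest 25% and with cyclic loess normalization, 0.030 without the dimmest 50%, and 0.0056 to 0.10 on leaving out each array. Quantile, loess and median centring did not move the median of all genes by over 0.1.

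Of 1187 values of 54 named ZNF genes under 23 alternatives, 35 ran the opposite way, with 0 of these past the threshold, and for 39 genes the direction held in each. Opposite values came with array weights for ZNF304 (-0.071), ZNF331 (-0.24), ZNF451 (0.18), ZNF543 (-0.40) and ZNF622 (-0.17), and for ZNF451 with quantile (0.047) and cyclic loess normalization (0.016). ZNF304 gave -0.093 with the mean of its probe sets and -0.25 with the dimmer one, and ZNF706 gave -0.018 without after 2 and before 6. On leaving out each array the changes ran from -0.57 to 0.11 for ZNF207, -0.25 to 0.033 for ZNF3, -0.12 to 0.23 for ZNF304, -0.66 to 0.090 for ZNF326, -0.025 to 0.28 for ZNF331 and ZNF335, -0.34 to 0.49 for ZNF385A, -0.46 to 0.32 for ZNF451, -0.77 to 0.40 for ZNF462, -0.15 to 0.29 for ZNF543, -1.09 to 0.10 for ZNF572, -0.040 to 0.44 for ZNF622, -0.14 to 0.47 for ZNF688, -0.053 to 0.13 for ZNF706 and -0.054 to 0.46 for ZNF768. The causes were not tested. Medians by KRAB sequence signature were not run, since no protein sequences were used here. What dim signal limits was not tested.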
